A study of Equus caballus with 10 samples.

Results

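The transcription factors of the epithelial to mesenchymal transition (EMT) measured here were the 7 genes SNAI1, SNAI2, TWIST1, TWIST2, ZEB1, ZEB2 and PRRX1, found by gene name among the 29196 genes of the deposited table. They were followed in primary tendon cells (tenocytes), taken after death from the superficial digital flexor tendons of Thoroughbred or Thoroughbred-type horses and grown for 14 days in 3D gels of bovine collagen. All cultures received PF-06650833, which inhibits the kinase IRAK-4 downstream of the interleukin-1 receptors, at 100 nM every day. A group of 5 libraries received nothing else (PF alone in what follows), and the other 5 libraries came from gels that were also exposed to IL-1β at 17 ng/ml, added at each medium change (IL-1β + PF). Each of 5 donors, called donors 1 to 5, gave 1 library to each group, and several gels were pooled for a library, so p-values measure the spread between the donors' cultures. Libraries of untreated gels and of IL-1β without the inhibitor were not analysed here, so the values show what IL-1β did in the presence of the inhibitor.

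Snail and Slug (encoded by SNAI1 and SNAI2), ZEB1 and ZEB2 are zinc finger proteins that bind E-box sequences and repress epithelial genes such as that of E-cadherin. TWIST1 and TWIST2 are basic helix-loop-helix factors that bind DNA as dimers with E proteins, and PRRX1 is a paired-related homeobox factor of the limb bud mesenchyme. Together they are best known for the loss of epithelial character in embryos and tumours, but fibroblasts and other connective tissue cells express them without any transition taking place.

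Expression is given as variance-stabilised log2 values, on which a gene with 0 reads has the value 3.433. Because a value also depends on transcript length, levels were not compared between genes. The spacing of the low values put the reads on genes at about 26600000 to 35900000 per PF alone library and 26800000 to 33600000 per IL-1β + PF library. Genes above 3.433 in at least 5 libraries were compared with limma. Differential expression required a Benjamini-Hochberg adjusted p under 0.05 together with a log2 fold change of 1 or more in size, which is called the minimum fold change. All 7 factors passed this filter, and the lowest value of any of them was that of SNAI2 in donor 2 with IL-1β + PF, at 51.6 normalised counts.

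Between the groups, SNAI1 was upregulated and SNAI2 and ZEB1 were downregulated. These 3 of the 7 factors were differentially expressed, against 6.68% of the 17992 tested genes. The 1 factor that rose stands against 3.11% of tested genes that were differentially expressed and higher, and the 2 that fell against 3.57% that were lower. TWIST2 and ZEB2 also passed the adjusted p and were higher, but by less than the minimum fold change. With no minimum fold change 5 of the 7 factors passed an adjusted p of 0.05, against 15.5% of tested genes. Of these, 3 were higher and 2 lower, against 7.57% and 7.89% of tested genes. This count was 3, with 1 higher and 2 lower, without the IL-1β + PF library of donor 1, and lay between 3 and 6 over the 15 fits that left out 1 library or both libraries of 1 donor. In the fit that takes the replicate number (the donor) as a block, the counts were again 3 and 5, against 8.26% and 22.2% of tested genes. Since the factors were chosen with earlier results of these data known, these shares are descriptions.

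**Figure D1:**
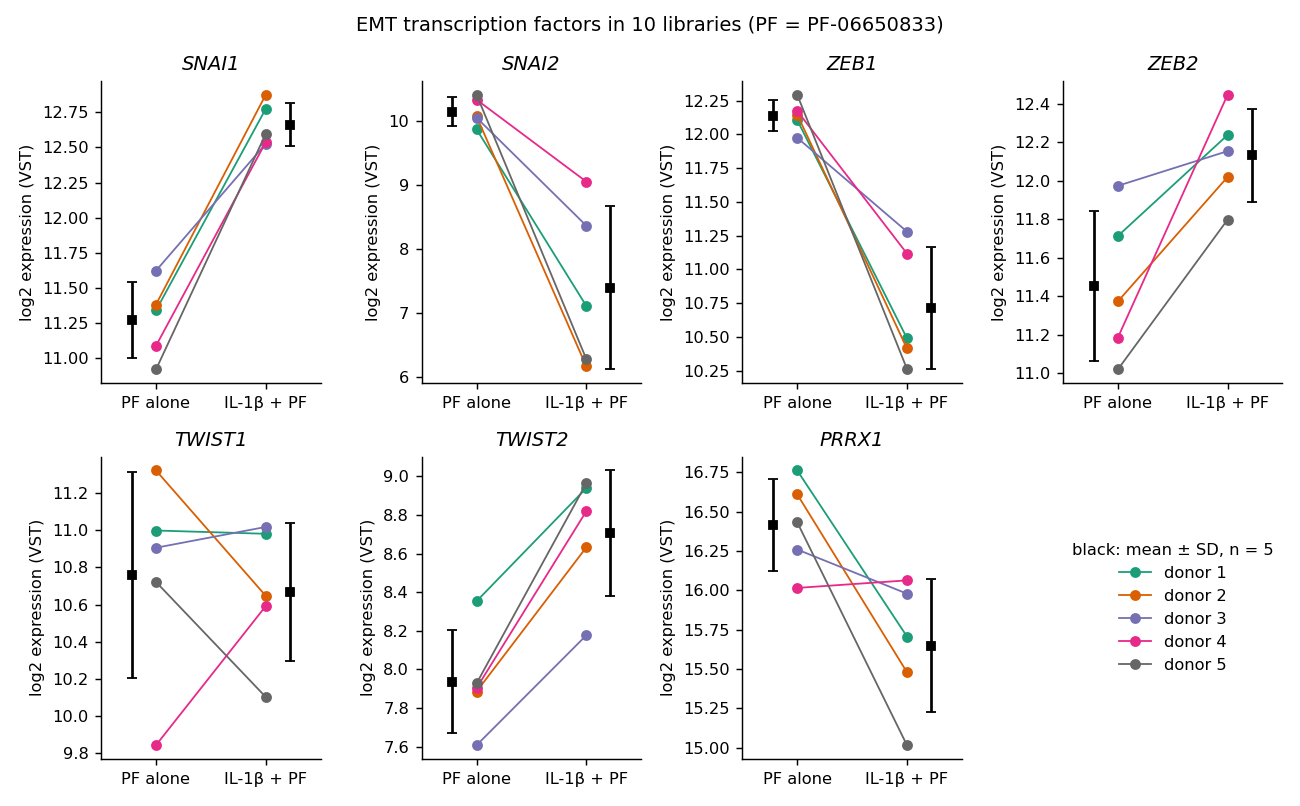
Log2 expression (variance-stabilised) of the 7 factors in the 10 libraries, with a line joining the 2 libraries of a donor and black squares for the mean ± SD of the 5 libraries of a group. All 5 lines rise for SNAI1, ZEB2 and TWIST2 and fall for SNAI2 and ZEB1, and the groups are apart for SNAI1, SNAI2 and ZEB1.

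SNAI1 encodes Snail, a repressor that recruits chromatin-modifying complexes to E-boxes. With PF alone, SNAI1 expression was 11.34, 11.38, 11.62, 11.09 and 10.92 on the log2 scale in donors 1 to 5. With IL-1β + PF it was 12.77, 12.87, 12.53, 12.54 and 12.60 in the same donors. Every library with IL-1β was above every library without it, and the 5 libraries with IL-1β lay closer together (SD 0.155) than those with PF alone (SD 0.272). The mean rose from 11.27 to 12.66, a log2 fold change of 1.39 (standard error 0.13, 95% confidence interval 1.10 to 1.68, adjusted p = 1.72e-04 from limma), or 2.62-fold. The increase within a donor lay between 0.90 in donor 3 and 1.67 in donor 5. In normalised counts, SNAI1 stood at 1918 to 3133 in the PF alone libraries and at 5874 to 7483 in the IL-1β + PF libraries.

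SNAI2 encodes Slug, the close relative of Snail, and it moved the other way. With PF alone its expression was 9.88, 10.08, 10.06, 10.34 and 10.42 on the log2 scale in donors 1 to 5. With IL-1β + PF it was 7.11, 6.16, 8.37, 9.06 and 6.28. The groups did not overlap, but the spread between donors was larger with IL-1β (SD 1.28) than without it (SD 0.222). The mean fell from 10.15 to 7.39, a log2 fold change of -2.76 (standard error 0.50, 95% confidence interval -3.86 to -1.66, adjusted p = 0.00458 from limma), which was the largest change among the 7 factors. In normalised counts, donor 5 went from 1346 to 57.4 and donor 2 from 1059 to 51.6, while donor 4 went from 1275 to 511 and donor 3 from 1044 to 309. Variance stabilisation compresses differences at low values, and on the scale of log2(normalised count + 1) the log2 fold change of SNAI2 was -2.98. SNAI3, the remaining member of the Snail family, was at the value of 0 reads in all 10 libraries.

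ZEB1 also fell. It encodes a repressor with zinc finger clusters at both ends and binds the corepressor CtBP. With PF alone its expression was 12.11, 12.15, 11.97, 12.17 and 12.29 on the log2 scale in donors 1 to 5, and with IL-1β + PF it was 10.49, 10.41, 11.28, 11.12 and 10.26. The libraries of PF alone lay within a narrow band (SD 0.115), and all 5 libraries with IL-1β lay below it. The mean fell from 12.14 to 10.71, a log2 fold change of -1.43 (standard error 0.19, 95% confidence interval -1.84 to -1.01, adjusted p = 8.75e-04 from limma), or 2.69-fold. The log2 difference within a donor ran from -0.70 in donor 3 to -2.03 in donor 5.

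ZEB2 encodes the paralogue of ZEB1, which was first described as an interaction partner of SMAD proteins. Its expression was 11.71, 11.37, 11.97, 11.19 and 11.02 on the log2 scale with PF alone and 12.24, 12.02, 12.15, 12.45 and 11.80 with IL-1β + PF, in donors 1 to 5. It was higher with IL-1β in 5 of 5 donors, although donor 5 with IL-1β remained below donor 3 without it, so the groups overlapped. The log2 fold change was 0.68 (standard error 0.18, 95% confidence interval 0.27 to 1.08, adjusted p = 0.0297 from limma), below the minimum fold change. With the replicate number as a block the adjusted p was 0.0146. The adjusted p of ZEB2 rose above 0.05 in 7 of the 15 leave-out fits, each of which omitted 1 library or both libraries of 1 donor. These were the fits without the PF alone libraries of donors 2, 4 or 5, without the IL-1β + PF libraries of donors 1, 2 or 4, and without both libraries of donor 2, and the highest adjusted p among them was 0.0721.

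TWIST2, also known as Dermo-1, was higher with IL-1β + PF in 5 of 5 donors. Its expression was 8.35, 7.89, 7.61, 7.90 and 7.93 on the log2 scale with PF alone and 8.94, 8.63, 8.18, 8.82 and 8.96 with IL-1β + PF. Donor 3 was lowest in both groups, and its library with IL-1β lay below that of donor 1 without it. The log2 fold change was 0.77 (standard error 0.19, 95% confidence interval 0.35 to 1.19, adjusted p = 0.0197 from limma), below the minimum fold change. The adjusted p was 0.00509 with the replicate block, and 0.0546 without the IL-1β + PF library of donor 1.

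TWIST1, a factor needed for the formation of head mesenchyme, showed no common direction. Its expression in donors 1 to 5 was 2026, 2541, 1898, 896 and 1668 normalised counts with PF alone and 2001, 1582, 2053, 1522 and 1077 with IL-1β + PF. The groups overlapped over nearly their whole range, and the lowest library was that of donor 4 with PF alone. It was higher with IL-1β in donors 3 and 4 and lower in donors 1, 2 and 5. The log2 fold change was -0.09 (95% confidence interval -0.66 to 0.48, adjusted p = 0.861 from limma), so the interval spanned 0 and did not reach the minimum fold change in either direction. Of the variance of TWIST1 over the 10 libraries, 60.8% lay between donors and 1.13% between the groups, against 4.33% and 92.5% for SNAI1.

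PRRX1, the homeobox factor, was measured at 66200 to 111100 normalised counts with PF alone. On the log2 scale its expression was 16.76, 16.61, 16.26, 16.02 and 16.43 with PF alone and 15.71, 15.48, 15.98, 16.06 and 15.01 with IL-1β + PF. It was lower with IL-1β in 4 donors and nearly level in donor 4, where the difference was 0.05. The log2 fold change was -0.77 (standard error 0.24, 95% confidence interval -1.29 to -0.24), with an adjusted p of 0.0508 from limma and 0.0527 with the replicate block, so it did not pass. Its paralogue PRRX2 had a log2 fold change of -0.28 (adjusted p = 0.151 from limma) and was lower in 4 of 5 donors.

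**Figure D2:**
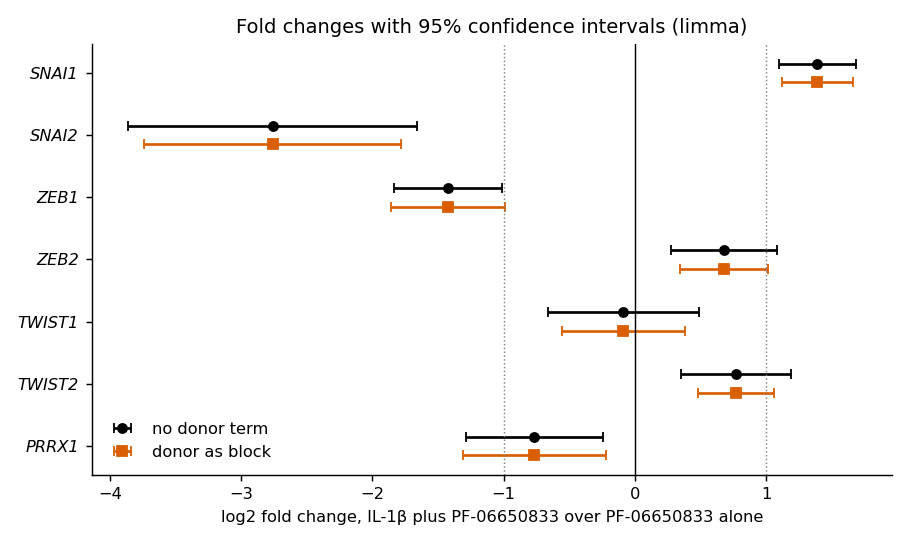
Log2 fold changes of the 7 factors (x axis, IL-1β + PF over PF alone) with 95% confidence intervals from limma, without a donor term (black circles) and with the donor as a block (orange squares); dotted lines mark the minimum fold change. The intervals of SNAI1, SNAI2 and ZEB1 without a donor term lie beyond these lines, and that of TWIST1 spans 0.

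Differences between the changes of paralogues were taken within each donor. The change of SNAI1 exceeded that of SNAI2 in every donor, by 4.15 ± 1.48 (SD, n = 5) on the log2 scale, with a range of 2.59 to 5.82. The change of ZEB2 exceeded that of ZEB1 by 2.10 ± 0.73 (SD, n = 5), with a range of 0.88 to 2.81. For TWIST2 against TWIST1 the difference was smaller, at 0.86 ± 0.64 (SD, n = 5), and positive in 5 of 5 donors (0.17 to 1.66). PRRX2 against PRRX1 gave 0.48 ± 0.64 (SD, n = 5), with donor 4 in the other direction (-0.38). These differences were not tested.

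Groups that did not overlap were found for SNAI1, SNAI2 and ZEB1, 3 of the 7 factors, against 12.7% of tested genes. The same direction in all 5 donors was found for 5 factors, against 32.7% of tested genes.

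The size of the decreases differed between donors in a similar order for 3 genes. The lowest log2 differences between the libraries of a donor were those of donor 5, at -4.14 for SNAI2, -2.03 for ZEB1 and -1.42 for PRRX1, followed by donor 2 and donor 1 for each of these genes. Donors 3 and 4 were nearest to 0, at -1.69 and -1.28 for SNAI2 and at -0.70 and -1.06 for ZEB1. For TWIST1 the difference was -0.68 in donor 2 and -0.62 in donor 5, and 0.75 in donor 4. Over the other 1199 differentially expressed genes, the median change in each gene's own direction ran from 1.10 on the log2 scale in donor 3 to 1.96 in donor 5, with 1.78 in donor 2. Donor 5 thus had the largest response over these genes too, and the part of this general difference in the values of the 7 factors was not tested. ZEB2 did not follow this order, since its largest increase was in donor 4 (1.26).

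**Figure D3:**
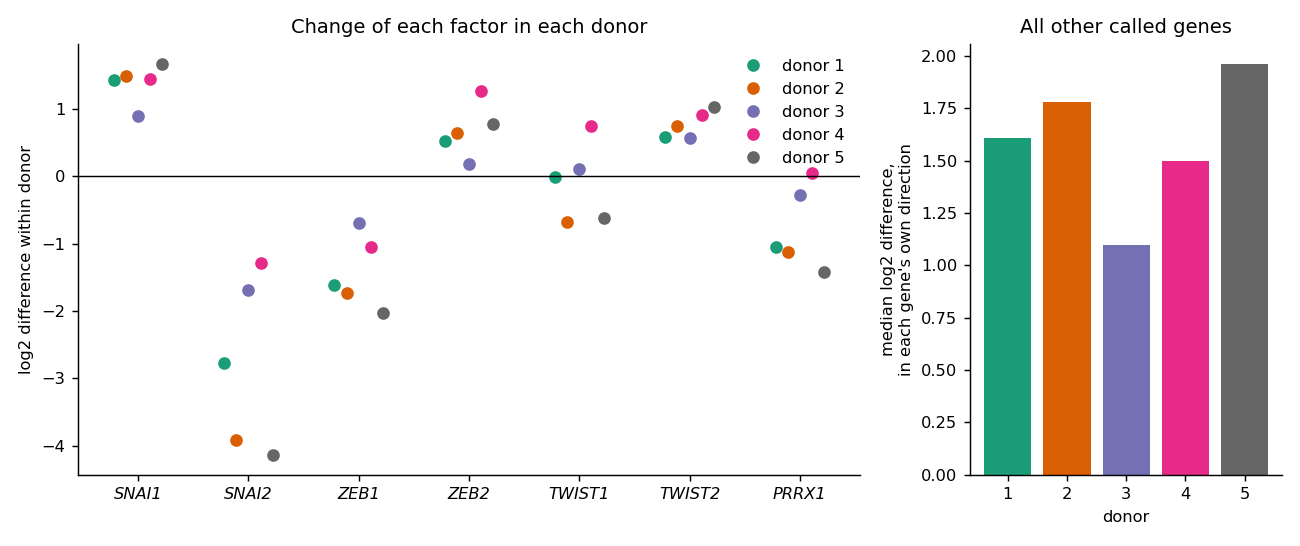
Left, log2 difference between the 2 libraries of each donor (IL-1β + PF minus PF alone) for the 7 factors; right, median log2 difference of each donor over the other 1199 differentially expressed genes, each taken in its own direction. Donors 3 and 4 (violet and pink) lie nearest to 0 for SNAI2, ZEB1 and PRRX1, and donor 3 has the lowest bar at 1.10.

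The genes whose values followed those of the differentially expressed factors most closely were found by the root mean square difference of centred log2 values over the 10 libraries, among 13865 tested genes with a symbol. For SNAI1 the nearest gene was NFKB2, which encodes the p100 precursor of the NFκB subunit p52, at a difference of 0.13. WIPI1, which encodes a protein of autophagosome formation, and PHACTR2, of a family of actin and phosphatase regulators, both followed at 0.17. For SNAI2 they were the ephrin receptor gene EPHB3 (0.25), the fibroblast growth factor receptor gene FGFR2 (0.32) and the sarcoglycan gene SGCD (0.38). For ZEB1 they were DIXDC1 (0.14), PCGF5, which encodes a Polycomb group protein (0.17), and the forkhead factor gene FOXP1 (0.17). FOXP1 had a log2 fold change of -1.29 and NFKB2 of 1.32, both differentially expressed. These genes were picked for closeness to factors already differentially expressed, in the same 10 libraries. Their similar fold changes therefore follow from the choice and are not a separate result.

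**Figure D4:**
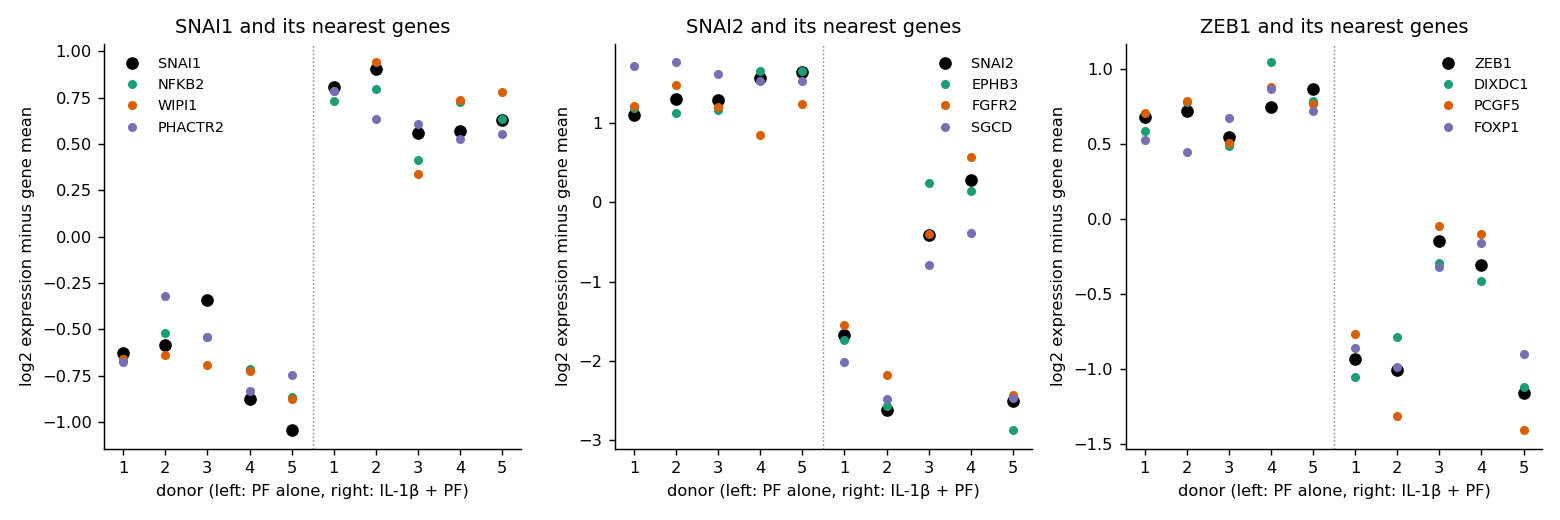
Log2 expression minus the gene's own mean (y axis) in the 10 libraries for SNAI1, SNAI2 and ZEB1 (black) and the 3 genes nearest to each (coloured), with PF alone left of the dotted line. In donors 3 and 4 with IL-1β, SNAI2 and EPHB3, FGFR2 and SGCD all lie above the other donors. This likeness follows from how the nearest genes were picked.

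Genes that act on or with these factors were taken from lists of symbols. Among 22 tested relatives and other EMT-associated factors 5 were differentially expressed, 2 higher and 3 lower, against 6.68% of tested genes. The median log2 fold change of the 22 was -0.02, against -0.01 over all tested genes. The chondrogenic factor SOX9 fell by 1.49 (adjusted p = 7.52e-04 from limma) and the homeobox factor MSX2 by 1.27 (adjusted p = 0.0141). MSC, which encodes the Twist-related bHLH repressor musculin, rose by 1.01, at the minimum fold change (adjusted p = 3.00e-04 from limma), and 7 of the 15 leave-out fits gave it less than the minimum, down to 0.93 without both libraries of donor 1. The other 6 were those without the PF alone libraries of donors 1 or 5, the IL-1β + PF libraries of donors 1, 3 or 4, and both libraries of donor 4. FOXC1, named after its values were seen, rose by 1.29 (adjusted p = 0.0345 from limma) and was also lost in 7 fits. These were the fits without the PF alone libraries of donors 1, 2, 3 or 5 or the IL-1β + PF library of donor 1 (adjusted p up to 0.076), without both libraries of donor 1, and without the IL-1β + PF library of donor 4, where its log2 fold change was 0.92. The list had 3 differentially expressed genes, all lower, without the PF alone libraries of donors 1 or 5, the IL-1β + PF library of donor 1 or both libraries of donor 1.

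The E proteins are the dimer partners of the Twist factors, and the ID proteins hold E proteins off DNA. Of these 7 genes 1, ID3, was differentially expressed, against 6.68% of tested genes. The mean of ID3 rose from 14.39 to 15.47 (log2 fold change 1.08, adjusted p = 0.00437 from limma). ID1, ID2 and ID4 also passed an adjusted p of 0.05 with log2 fold changes of 0.99, 0.64 and 0.65, below the minimum, and were higher in 5 of 5 donors. The E-protein genes TCF3, TCF4 and TCF12 did not pass. Without the PF alone library of donor 4, or without both libraries of donor 4, ID3 was below the minimum fold change (0.92 and 0.98) and 0 of the 7 genes were counted by limma, although the adjusted p of ID3 was at most 0.00621. In 8 other leave-out fits, without the PF alone libraries of donors 1, 2 or 3, the IL-1β + PF libraries of donors 2, 3 or 4, or both libraries of donors 2 or 3, the count was 2.

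Of 17 co-repressors and chromatin partners 1 was differentially expressed, against 6.68% of tested genes. LOXL2, a lysyl oxidase that cross-links collagen and also binds Snail, fell from 13.95 to 12.27 (log2 fold change -1.68, adjusted p = 0.0014 from limma). The median of the 17 genes was -0.01. Of 14 kinases, phosphatases and ubiquitin ligases known to act on these factors, 0 were differentially expressed by limma, against 6.68% of tested genes. Of the 14, 5 had an unadjusted p below 0.05, against 5348 of the 17992 tested genes. An adjusted p below 0.05 was reached by 2, FBXL5 higher (0.49) and PAK1 lower (-0.86), against 15.5% of tested genes.

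Of 21 upstream inducers 3 were differentially expressed, against 6.68% of tested genes, and the median log2 fold change was 0.12. NFKB1, the gene of the p105 precursor of the NFκB subunit p50, rose by 1.15 (adjusted p = 4.36e-04 from limma). HMGA2, an architectural chromatin protein that can bind the SNAI1 promoter, rose by 1.68 (adjusted p = 0.0159). The Notch ligand gene JAG1 fell by 1.68 (adjusted p = 0.0282), and it was lost in 10 of the 15 leave-out fits, with an adjusted p of up to 0.0891. These were the fits without the PF alone libraries of donors 1, 2, 4 or 5, the IL-1β + PF libraries of donors 1, 2 or 5, or both libraries of donors 1, 2 or 5. Without both libraries of donor 4 the list had 5 differentially expressed genes. An adjusted p below 0.05 was reached by 6 of the 21 genes, against 15.5% of tested genes. Below the minimum fold change, HIF1A was higher (0.70, adjusted p = 0.0125 from limma) and STAT3 lower (-0.49, adjusted p = 0.0134). The TGF-β receptor gene TGFBR1 was also lower and below the minimum (-0.64, adjusted p = 0.0179). HIF1A, STAT3 and TGFBR1 were named after their values were seen.

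Epithelial genes known as repressed targets of these factors were mostly low or did not pass. Of 26 such genes 19 passed the filter. Differential expression was found for 4 of the 19, all lower with IL-1β + PF, against 6.68% of tested genes. The median log2 fold change of the 19 was -0.07, and 9 of the 19 had a positive log2 fold change. CLDN4, TJP3 and PATJ, named after their values were seen, were higher in 5 of 5 donors, by less than the minimum fold change. Their adjusted p from limma was 0.325, 0.208 and 0.0789, and 0.0147, 0.0153 and 0.0251 with the replicate block. CDH1, which encodes E-cadherin, was at 9.27, 9.11, 9.12, 10.64 and 9.47 on the log2 scale with PF alone and at 7.08, 5.97, 7.99, 8.86 and 6.63 with IL-1β + PF. The groups did not overlap, and the log2 fold change was -2.22 (standard error 0.50, adjusted p = 0.0136 from limma). As for SNAI2, the libraries with IL-1β of donors 3 and 4 were the highest of their group, and donor 4 was also highest for CDH1 with PF alone. The same 2 libraries were highest for other genes that fell, such as ZEB1, FAP and LOX, but not for SOX9 or TNC. The keratin gene KRT19 was at 76.1 to 1010 normalised counts with PF alone and at 0 in 4 of the 5 libraries with IL-1β, with 1.16 in donor 3. The mucin gene MUC1 fell by 1.94 and the plakophilin gene PKP2 by 1.28, and PKP2 was not counted without the IL-1β + PF library of donor 2 (adjusted p = 0.0548). These are low levels, at 7.14 to 45.8 normalised counts for MUC1 with IL-1β. EPCAM was at the value of 0 reads in all libraries.

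Of 23 tested mesenchymal genes 5 were differentially expressed, all lower, against 6.68% of tested genes, and the median log2 fold change was -0.74. With the replicate number as a block, 9 of the 23 were, all lower, against 8.26% of tested genes. Of the 23, 6 had a positive log2 fold change. Among these, S100A4 rose by 0.78 (adjusted p = 0.0354 from limma), below the minimum fold change, and MMP2 by 0.73 (adjusted p = 0.185). Both were higher in 5 of 5 donors, and both were named after their values were seen. FAP, a serine protease of activated fibroblasts, fell by 2.38 (adjusted p = 0.00646 from limma), the collagen cross-linking enzyme LOX by 2.37 and the matrix glycoprotein TNC by 2.04. The fibronectin gene FN1 fell by 1.41 (adjusted p = 0.0369), and it was lost in 8 of the 15 leave-out fits, with an adjusted p of up to 0.104. These were the fits without the PF alone libraries of donors 1, 2, 4 or 5, the IL-1β + PF libraries of donors 1, 2 or 5, or both libraries of donor 1. COL5A1, named after its values were seen, fell by 1.10 (adjusted p = 0.0468) and was also lost in 8 fits, without the PF alone libraries of donors 1, 3, 4 or 5, the IL-1β + PF libraries of donors 1, 2 or 5, or both libraries of donor 5. The count of the list was 3 without the PF alone libraries of donors 1, 4 or 5 or the IL-1β + PF libraries of donors 1 or 5, 10 without both libraries of donor 3, and 8, with 1 of them higher, without both libraries of donor 4. CDH2, which encodes N-cadherin, had a log2 fold change of -0.47 (adjusted p = 0.451) and the intermediate filament gene VIM of -0.43 (adjusted p = 0.249). For COL1A1 it was -1.38 (adjusted p = 0.0682, and 0.0147 with the replicate block) and for the smooth muscle actin gene ACTA2 -1.01 (adjusted p = 0.227, and 0.0334 with the block), so the block changed both calls. Without a variance trend or with robust variance estimates, and no block, the list had 7 differentially expressed genes. The epithelial and the mesenchymal list therefore each held genes that fell, and in the main comparison neither held a differentially expressed gene that was higher. The epithelial list had 1 higher gene with the replicate block, GRHL2 (adjusted p = 0.00747, against 0.0536 without it). It had 3 higher and 4 lower genes with the block on the scale of log2(normalised count + 1), and 1 higher gene with median centring, with only genes above 3.433 in all libraries, and without the IL-1β + PF library of donor 4. Leaving out both libraries of a donor, with the block, gave 1 higher gene, or 2 for donor 4. GRHL2 encodes a factor that maintains epithelial genes, and it was named after its values were seen.

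**Figure D5:**
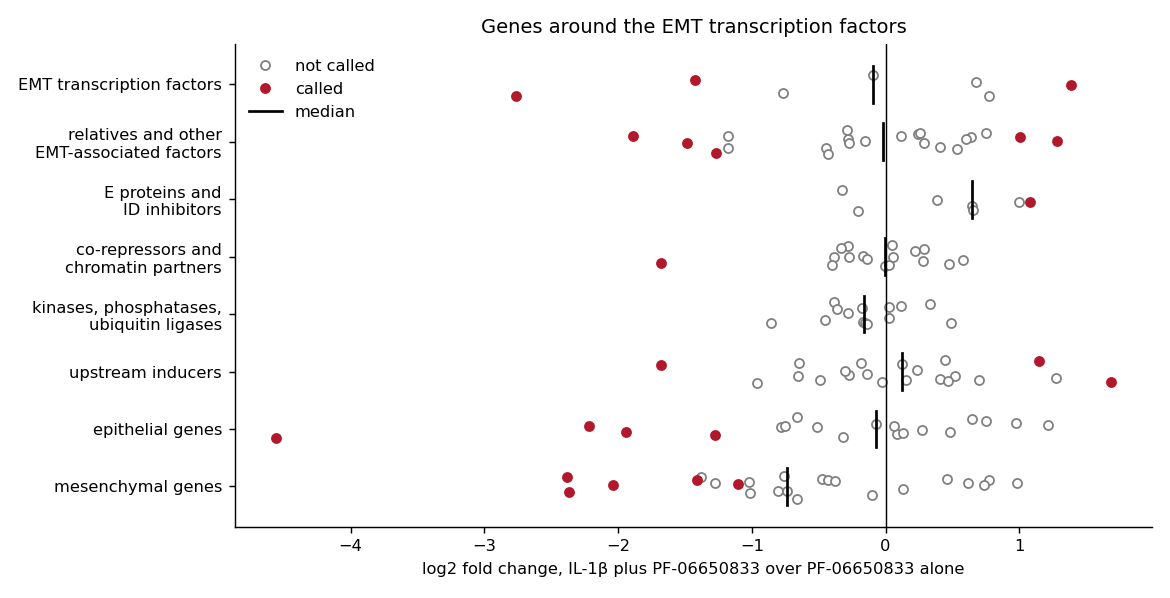
Log2 fold changes (x axis, IL-1β + PF over PF alone) of the 7 factors and of the genes of 7 lists around them, with filled points for differentially expressed genes, open points for the others and a black line for the median of each list. The medians of the epithelial and mesenchymal genes are -0.07 and -0.74.

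The tenocyte identity of the libraries was checked with markers. Of 13 markers of tenocytes and tendon fibroblasts 11 passed the filter. Of these 4 were differentially expressed, SCX, MKX, COMP and TNC, all lower with IL-1β + PF, against 6.68% of tested genes. The count was 6 with the replicate block, 7 without the IL-1β + PF library of donor 4 or both libraries of donor 4, and 8, with 1 of them higher, without both libraries of donor 3. The summed normalised counts of the markers were 982900 to 1599000 in the PF alone libraries and 284400 to 1093000 in the IL-1β + PF libraries. A large part of these sums was COL1A1, at 274900 to 745800 and at 102000 to 421100 in these groups. Of the 11 tested markers 2 had a positive log2 fold change, among them DCN (1.01, adjusted p = 0.268 from limma). TNMD, a marker of mature tenocytes, was at the value of 0 reads in all libraries. The 8 leucocyte markers summed to 63.3 to 1771 and to 172 to 1946 normalised counts in these groups, with CD3E at 0 in all libraries. Of the 4 tested 1, CD68, was differentially expressed and higher with IL-1β, against 6.68% of tested genes. The 6 endothelial markers summed to 12.8 to 52.2 and to 10.0 to 45.5. The 6 epithelial markers, which include CDH1, summed to 534 to 1571 and to 43.1 to 444, with EPCAM and KRT5 at 0 in all libraries. Of the 6 markers of smooth muscle cells and pericytes 3, RGS5, CSPG4 and DES, were differentially expressed and lower with IL-1β, against 6.68% of tested genes. RGS5 was lost without both libraries of donor 2 (adjusted p = 0.0501 from limma). MYH11 and CNN1 were not differentially expressed (adjusted p = 0.678 and 0.332), and MCAM had a positive log2 fold change (0.34). The sums of the 6 were 13700 to 65490 and 16510 to 32200. The 5 Schwann and neural markers summed to 2829 to 6358 and 2087 to 4766, and 0 of the 2 tested were differentially expressed by limma (1 at an unadjusted p below 0.05). The part of these markers in the values of the EMT transcription factors was not tested. In libraries of whole gels, fewer cells of a type and less RNA per cell cannot be told apart.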

How the data were processed

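RNA from 10 collagen gel cultures was sequenced by the authors, who quantified reads on the EquCab3.0 horse transcriptome with Salmon (version 1.8) with GC-bias correction, summed them to genes with tximport and used DESeq2 (version 1.36). The authors deposited log2 values. The transformation is not given in the sources used here, and it was recognised as variance stabilisation from the lowest value of 3.433 shared by all libraries. The study tabulates these values with those of further libraries not used here, so they were normalised together.

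The 17992 genes whose values exceeded the lowest one in 5 or more libraries were compared in limma 3.58.1 under R 4.3.3, allowing a trend of variance with mean and adjusting p-values by Benjamini-Hochberg. The study names no donor term, so the main fit has none, and a second fit takes the replicate number as a block. Libraries whose sample titles share the code of a tenocyte line were taken to be from the same donor. These libraries deviated together from their group means (correlation across genes 0.367 to 0.506 over 5 pairs, against a mean of -0.107 over 20 pairs of different donors). Normalised counts were recovered by inverting the transformation. The estimated reads rest on low values of which 62.0% to 82.5% lay within 0.15 of a whole read. No libraries were identical (0 of 45 pairs). The fit was tested on simulated counts that had no donor effect and the same spread in both groups. That test therefore does not cover the pairing by donor or the unequal spread seen here. Alternatives were the block, other filters and thresholds, log2(normalised count + 1 or 0.5), quantile normalisation, median centring, other variance models, and leaving out each library or donor.

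The factors and gene lists were chosen with earlier results of these data known. A rule named the 7 factors, their paralogues, 6 classical targets and the 3 genes nearest to each differentially expressed factor. It also named up to 4 differentially expressed genes of each list other than marker lists, by smallest adjusted p. Other genes of the lists, such as ID1, FBXL5 and PAK1, and single markers were named outside this rule, with their values known. Sequences and positions were not used here. A gene that this rule would name is not reported here.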

Additional observations from a re-analysis of the deposited data

Results flagged for a closer look

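In 76 groups of 5 libraries, over the factors and the other genes that the rule above names, 2 held a library that lay apart from the other 4. Chance gives about 1 in 20, or 3.8. CDH1 was at 10.64 in the PF alone library of donor 4, against 9.11 to 9.47 in the other donors. KRT19 was at 3.90, or 1.16 normalised counts, in the IL-1β + PF library of donor 3, against 3.43 in the other donors. In that library 1 read is estimated at 1.148 normalised counts. The other 4 libraries were tied at the value of 0 reads, so a single read is flagged here whatever its size. The rate of 1 in 20 does not hold for such a group. None of the 14 groups of the 7 factors was among them.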

How the results depend on the processing

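SNAI1, SNAI2 and ZEB1 were differentially expressed in all 25 alternative fits with the minimum fold change, and the other factors in 0 of them. Over the 15 leave-out fits, the log2 fold change lay between 1.30 and 1.51 for SNAI1, -3.18 and -2.42 for SNAI2, -1.61 and -1.27 for ZEB1, and -0.32 and 0.06 for TWIST1, which changed sign in 4 fits (0.05 without the PF alone library of donor 2, 0.0513 without the IL-1β + PF library of donor 5, and 0.0560 and 0.0422 without both libraries of donor 2 and of donor 5). An adjusted p below 0.05 was reached by TWIST2 in 24, ZEB2 in 18 and PRRX1 in 8 of the 25 fits, PRRX1 on the scale of log2(normalised count + 1) (0.0462) among them. The number of factors counted was 5 without a minimum fold change, and 5 without it in the fit with the replicate block, against 3. Over all genes the count was 2782 and 3996 in these cases, 1809 with the replicate block on the scale of log2(normalised count + 1), and 932 to 1677 in the leave-out fits, against 1202. Median centring counted 2 of the E-protein and ID genes, against 1, and the replicate block 9 of the mesenchymal genes, against 5. Apart from COL1A1, ACTA2 and GRHL2 the replicate block changed no call of a gene named. The cause of these changes was not tested. The donors are 5, the depth is estimated, and the libraries without PF-06650833 were not used here.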
